A study of Mus musculus and Homo sapiens with 30 samples.

Results

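NMuMG cells, a mouse mammary gland epithelial line, were compared after exposure to the secretome of lean or of obese inguinal adipocytes, that is, to medium conditioned by fat cells of the inguinal depot. The comparison used 3 libraries with the lean secretome and 3 with the obese secretome, 6 of the 30 libraries of the series, chosen by their labels alone. All were poly(A) RNA libraries read as 150 bp pairs. The cells had grown for 36 h in DMEM with insulin at 10 mcg/ml, glucose at 4.5 g/L and FBS at 10%, and then spent 16 h in a mixture of 50% secretome and 50% of that medium, so the share of secretome was matched between the groups. A further 3 NMuMG libraries from standard growth medium without secretome served as the control background. The labels list NMuMG under breast cancer, as they do the cancer lines of the series, and they give neither the species of the adipocytes nor the source of the obesity. They do not say whether replicates came from separate cultures or from separate batches of secretome, so the p-values measure the spread between these libraries, which may be technical.

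The title of the series ties a lipid product of lean breast adipocytes to ferroptosis, a death of cells by iron-driven oxidation of membrane lipids. Cells meet reactive lipids and electrophiles with the NRF2 program: the adaptor Keap1 normally holds the transcription factor NRF2 (gene Nfe2l2) for degradation, and electrophiles that modify Keap1 release it to switch on genes for glutathione synthesis, conjugation, export and iron storage. Fatty acids and their oxidised products are also ligands of the PPAR nuclear receptors, which switch on genes for fat burning and lipid droplets. NMuMG cells are widely used to study how mammary epithelium gains contractile and mesenchymal genes under TGF-beta.

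Values below are in CPM, the reads of a gene scaled to the size of its library, given for replicates 1, 2 and 3 in that order. Fold changes are log2 values of lean over obese from edgeR's quasi-likelihood test, with Benjamini-Hochberg adjusted p-values over 15014 genes, and a gene is said to have risen or fallen where the adjusted p was under 0.05. By that rule 17.6% of all genes tested rose and 17.4% fell, and the median log2 fold change of all genes tested was -0.0023. The lean and obese libraries did not overlap in 45.2% of the genes tested. Of the called genes, 261 rose and 109 fell by at least 1 on the log2 scale, 2.46% of the genes tested, and 35 rose and 9 fell by at least 2.

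**Figure D1:**
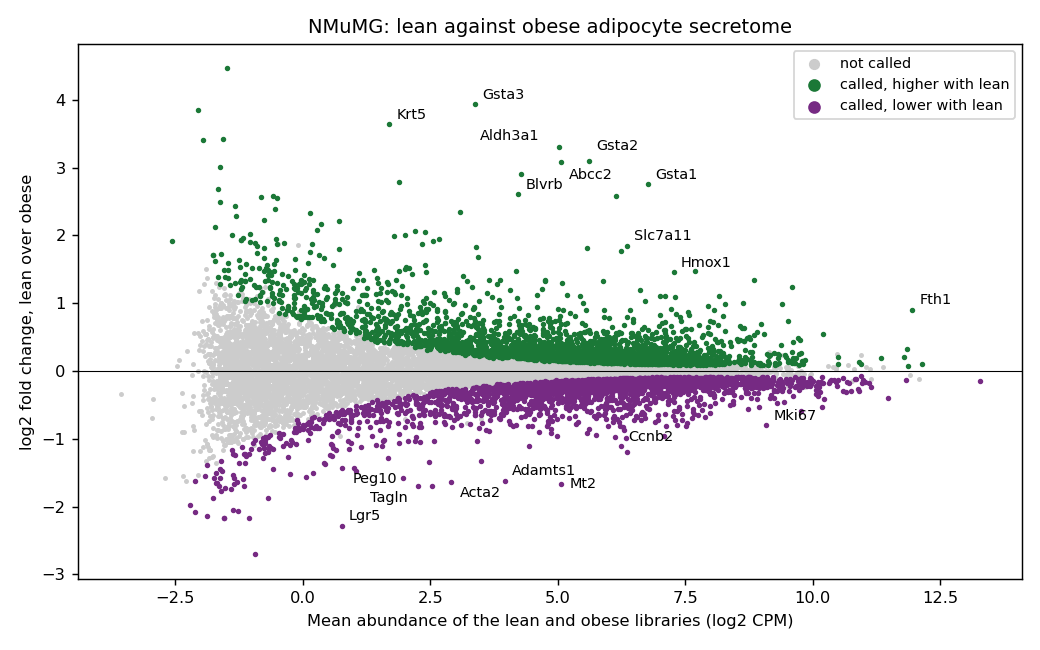
Log2 fold change of lean over obese secretome (vertical axis) against mean abundance of the 6 lean and obese libraries in log2 CPM (horizontal axis) for the 15014 genes tested in NMuMG, coloured by call. The named detoxification genes, such as Gsta3 at 3.94 and Fth1 at 0.91, lie above 0, and Acta2, Tagln, Mt2 and the mitotic genes Ccnb2 and Mki67 lie below it.

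The libraries held 23966897 to 29686456 counts each. Keratin genes Krt8, Krt18 and Krt19 and E-cadherin (Cdh1) were abundant, with summed levels of the 10 epithelial markers of 7810 to 8090 CPM with the lean secretome, 6720 to 7020 CPM with the obese secretome and 7110 to 7520 CPM in control medium, and 6 of 7 tested markers rose. Among those markers Cldn7 was at 0 in all 9 libraries, Cldn3 had at most 3 reads and Epcam about 2 CPM. Of the 10 adipocyte markers, Lep, Plin1 and Cfd were at 0 in all 9 libraries and Adipoq had at most 2 reads. Of the 4 that could be tested, 3 rose, and the list summed to 121 to 126 CPM (lean), 100 to 105 CPM (obese) and 93.7 to 103 CPM (control). Of 8 macrophage and leukocyte markers, 3 could be tested and 1 rose (Cd14), with sums of 193 to 206 CPM (lean), 175 to 182 CPM (obese) and 174 to 191 CPM (control). Adgre1 was at 0 there and Ptprc had at most 9 reads. None of the 4 endothelial markers reached the level for testing, and of 6 fibroblast markers 2 did, of which Col1a1 fell.

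Obese replicate 1 stood apart from the other 2 obese libraries. On the first principal component of the 9 libraries, which held 44.5% of the variance, it scored -2.9, against -17.1 and -13.4 in the other 2 obese libraries, 26.8 to 34.0 in the lean libraries and -19.5 to -18.6 in the control libraries. Among the 2646 genes that rose, it was the highest of the 3 obese libraries in 57.6%. Values without it are given for the named genes whose fold moved by over 1.5 times when it was left out, and for several others in which it stood nearest to the lean libraries.

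Promoters of 4 detoxification genes and 4 mitotic genes are printed here because most members of these groups moved in the same direction. In each group they are the 4 called genes with the largest changes among those with a match before the start. Genes with larger changes that lacked a window or such a match were passed over. That every printed stretch holds a match therefore follows from the choice. They are 100-base stretches upstream of the transcription start from RefSeq (GRCm38.p6), written 5′ to 3′ on the strand of the gene, with the matched letters in capitals. The antioxidant response element that NRF2 binds was searched as TGACNNNGC on both strands of the 300-base windows (250 bases before to 50 bases after the start).
Gsta3: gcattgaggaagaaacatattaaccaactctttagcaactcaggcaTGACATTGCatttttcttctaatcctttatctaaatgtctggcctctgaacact
Abcc2: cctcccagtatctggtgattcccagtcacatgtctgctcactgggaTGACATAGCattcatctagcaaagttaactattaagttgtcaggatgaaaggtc
Mgst1: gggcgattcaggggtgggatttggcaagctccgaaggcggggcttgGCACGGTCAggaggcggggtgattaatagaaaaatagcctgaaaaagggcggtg
Abcc4: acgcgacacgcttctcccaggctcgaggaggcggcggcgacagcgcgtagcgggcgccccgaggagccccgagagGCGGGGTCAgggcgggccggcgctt
These stretches lie at chr1:21240418-21240517 (Gsta3, + strand), chr19:43782164-43782263 (Abcc2, + strand), chr6:138140425-138140524 (Mgst1, + strand) and chr14:118706220-118706319 (Abcc4, - strand). In Mgst1 and Abcc4 the match is on the opposite strand, so its reverse complement is in capitals. The element was in the windows of 19 of the 70 genes with a window (27.1%) among the detoxification genes that rose, in 0 of 9 that fell and in 3781 of all 27025 genes with a window (14%).

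Many mitotic genes carry the cell cycle genes homology region, a promoter element that helps time their expression in the cell cycle. It was searched as TTTGAA on both strands of the same windows.
Ccnb2: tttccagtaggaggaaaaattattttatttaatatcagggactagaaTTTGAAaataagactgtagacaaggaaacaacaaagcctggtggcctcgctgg
Kif2c: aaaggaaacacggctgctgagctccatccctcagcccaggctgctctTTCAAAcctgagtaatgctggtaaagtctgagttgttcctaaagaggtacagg
Mki67: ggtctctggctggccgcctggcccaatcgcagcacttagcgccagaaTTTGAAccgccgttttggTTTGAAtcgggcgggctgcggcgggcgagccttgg
Cdc20: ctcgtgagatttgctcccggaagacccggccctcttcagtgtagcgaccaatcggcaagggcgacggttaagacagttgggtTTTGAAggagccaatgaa
The stretches lie at chr9:70421669-70421768 (Ccnb2, - strand), chr4:117178823-117178922 (Kif2c, - strand), chr7:135716443-135716542 (Mki67, - strand) and chr4:118437344-118437443 (Cdc20, - strand), and the match in Kif2c is on the opposite strand. The letters were in the windows of 24 of 33 mitotic genes with a window (72.7%), against 5466 of 27025 genes (20.2%). A match describes the letters in the window and shows neither a bound site nor a cause of the change.

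Across 7 lists of the detoxification program (glutathione supply, transferases, thioredoxin and quinone enzymes, NADPH supply, aldehyde enzymes, export pumps, heme and iron), 87 of 126 tested genes rose and 9 fell. Nfe2l2, which encodes NRF2, was at 153, 157 and 168 CPM with the lean secretome, 162, 172 and 175 CPM with the obese secretome and 174 to 178 CPM in control medium. The log2 change was -0.09 (SE 0.0379, adjusted p = 0.0637), so it did not pass, although it did without lean replicate 3 (adjusted p = 0.0115) or obese replicate 1 (0.0184), with the lean libraries lower. Keap1 was at 78.4 to 85.8 CPM with the lean secretome against 80.3 to 87.6 CPM with the obese secretome, a log2 change of -0.04 (SE 0.0452, adjusted p = 0.571). Bach1, a repressor that competes with NRF2 at the same element, was at 32.3 to 35.8 CPM with the lean secretome against 29.8 to 33.0 CPM with the obese secretome (0.09 on the log2 scale, SE 0.0597, adjusted p = 0.242). Of the 9 genes of the regulator list, 4 rose and 1 fell. The small partner protein gene Mafk rose, from 37.6, 32.9 and 33.7 CPM with the obese secretome to 53.1, 48.4 and 52.6 CPM with the lean secretome, a log2 change of 0.57 (SE 0.0581, adjusted p = 1.57e-09). Sqstm1, whose product p62 draws Keap1 into autophagy, rose by 0.45 (SE 0.0603, adjusted p = 0.000158) on the log2 scale, and Cul3, the ligase scaffold that works with Keap1, fell by 0.22 (SE 0.0369, adjusted p = 9.61e-06).

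Glutathione S-transferases, the enzymes that join glutathione to electrophiles, rose as a class: 16 of 19 tested members rose (84.2%), none fell, and the median log2 fold change was 0.99. Gsta3 (ENSMUSG00000025934) was at 18.4, 16.1 and 24.3 CPM with the lean secretome, 2.67, 0.414 and 0.798 CPM with the obese secretome and 0.535 to 0.940 CPM in control medium. Its lean libraries were all far above the obese ones, and among the obese libraries only replicate 1 was above the controls. The log2 fold change was 3.94 (SE 0.443, adjusted p = 0.000623), the largest among the more abundant genes called (mean log2 CPM of 2 or more). Gsta2 (ENSMUSG00000057933) was at 84.8, 78.6 and 100.2 CPM with the lean secretome, 24.2, 2.73 and 4.33 CPM with the obese secretome and 0.974 to 1.41 CPM in control medium, and again obese replicate 1 lay between the other obese libraries and the lean libraries. The log2 change was 3.10 (SE 0.59, adjusted p = 0.00721). Gsta1 (ENSMUSG00000074183), whose reads can also match Gsta2, was at 184, 187 and 196 CPM with the lean secretome, 66.4, 7.50 and 11.6 CPM with the obese secretome and 2.52 to 3.45 CPM in control medium, with the same order of libraries. Its log2 fold change of 2.75 (SE 0.657, adjusted p = 0.0187) lost the threshold in the fit of the 2 groups alone (adjusted p = 0.0684), without lean replicate 3 (0.0505) and without obese replicate 3 (0.0587). Without obese replicate 1 the log2 fold changes were 4.98 for Gsta3, 4.62 for Gsta2 and 4.30 for Gsta1, and 15 members of the class rose. Over all alternatives 13 to 16 members rose.

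The mu class genes Gstm1 (1.77), Gstm4 (1.03) and Gstm2 (1.01) rose, as did Gstp1 (0.99) and the membrane-bound Mgst1 (1.21), Mgst3 (0.59) and Mgst2 (0.46), values on the log2 scale. Rises were also called in Gstm5 (0.32), Gsto1 (0.74), Gsto2 (0.75) and Gstz1 (0.26). Gstm3 also rose, from 0.254, 0 and 0.304 CPM to 1.21, 0.779 and 1.48 CPM, but rests on few reads. Reads of mu and pi class genes can match more than 1 member, so the size for each of these is uncertain. Gsta4, whose product clears 4-hydroxynonenal, an aldehyde made from oxidised lipids, was at 1061, 1054 and 1161 CPM with the lean secretome, 711, 309.7 and 365 CPM with the obese secretome and 230.2 to 239.8 CPM in control medium and rose by 1.24 (SE 0.305, adjusted p = 0.0209) on the log2 scale. The members that did not pass were Gstp2 (0.94), Gstt1 (0.96) and Gstt3 (0.73).

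**Figure D2:**
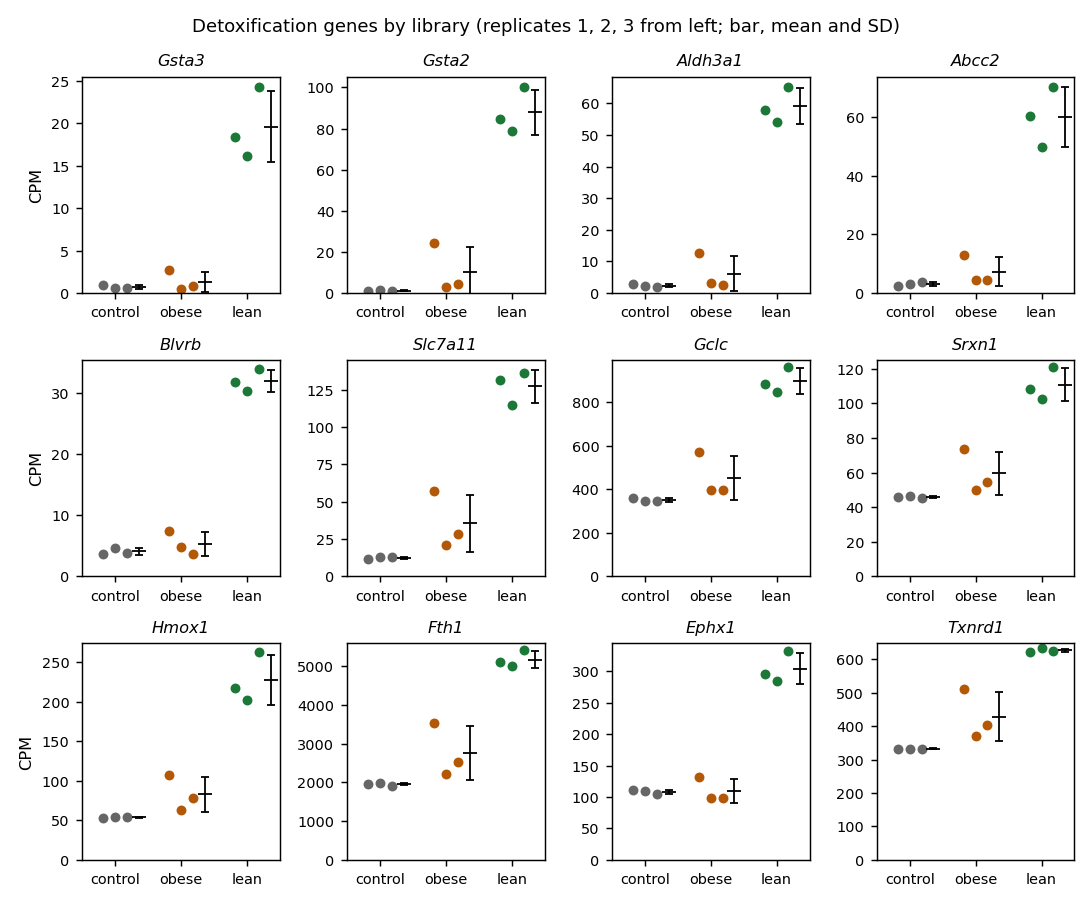
CPM of 12 detoxification genes in each NMuMG library (points, replicates 1 to 3 from left to right in each group) with the mean and SD of the 3 libraries of each group (bar). In each gene the 3 lean libraries lie above the 3 obese libraries, and obese replicate 1 is the highest of the obese libraries.

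Genes for glutathione supply rose too. In the list for cystine import and glutathione synthesis 7 of 12 tested members rose and none fell (median 0.34). Slc7a11, the cystine carrier of system xc-, was at 131, 115 and 136 CPM with the lean secretome, 57.2, 21.1 and 28.5 CPM with the obese secretome and 11.7 to 13.0 CPM in control medium. The lean libraries were far above the highest obese library, replicate 1, and the obese libraries all lay above the controls, with a rise of 1.85 (SE 0.322, adjusted p = 0.00492), and of 2.36 without obese replicate 1. Its partner chain Slc3a2 was at 388, 373 and 394 CPM with the lean secretome, 244, 197 and 214 CPM with the obese secretome and 195 to 204 CPM in control medium, a rise of 0.82 (SE 0.0654, adjusted p = 5.78e-06). Gclc, the catalytic subunit of the rate-limiting ligase, was at 884, 847 and 963 CPM with the lean secretome, 570.2, 395 and 395 CPM with the obese secretome and 344 to 360.1 CPM in control medium and rose by 0.99 (SE 0.152, adjusted p = 0.00279), or by 1.19 without that library, and its modifier subunit Gclm was at 312, 306 and 334 CPM with the lean secretome, 252, 213 and 219 CPM with the obese secretome and 212 to 218 CPM in control medium and rose by 0.48 (SE 0.0527, adjusted p = 5.33e-06). The lean and obese libraries did not overlap in any of these 4 genes. Slc1a4, a carrier of neutral amino acids, rose by 0.68 (SE 0.0618, adjusted p = 8.97e-10).

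Thioredoxin and quinone enzymes, which reduce oxidised proteins and quinones, gave 12 rises and 3 falls among 20 tested genes (median 0.21). Srxn1, which repairs over-oxidised peroxiredoxins, was at 108, 103 and 121 CPM with the lean secretome, 73.7, 50.1 and 54.9 CPM with the obese secretome and 45.5 to 46.5 CPM in control medium, a log2 change of 0.90 (SE 0.144, adjusted p = 0.00333). Thioredoxin reductase 1, Txnrd1, was at 622, 632 and 625 CPM with the lean secretome, 511, 371 and 402 CPM with the obese secretome and 330.1 to 333 CPM in control medium and rose by 0.55 (SE 0.112, adjusted p = 0.00978). In both the lean libraries were the highest of all and obese replicate 1 was the highest obese library. Nqo1, the quinone reductase often used as a readout of NRF2, was low in this line, at 8.02, 8.13 and 7.66 CPM with the lean secretome, 4.36, 0.911 and 1.33 CPM with the obese secretome and 0.747 to 1.18 CPM in control medium. The log2 change was 1.87 (SE 0.459, adjusted p = 0.0204), and 2.81 without obese replicate 1. The call was lost in 5 of 14 alternatives, namely the fit of the 2 groups alone (adjusted p = 0.0613) and the fits without lean replicate 1 (0.0585), lean replicate 2 (0.0568), lean replicate 3 (0.056) or obese replicate 3 (0.0663). Catalase (Cat), which breaks down hydrogen peroxide, was at 279.7 to 326 CPM with the lean secretome against 178 to 213 CPM with the obese secretome and rose by 0.64 (SE 0.08, adjusted p = 0.000482).

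NADPH is the reducing power for both systems, and 6 of 11 genes for its supply rose while 1 fell (median 0.24). The pentose phosphate enzymes Pgd (0.66), Taldo1 (0.50) and G6pdx (0.41) and the cytosolic dehydrogenase Idh1 (0.49) rose on the log2 scale. Pgd was at 458, 448 and 486 CPM with the lean secretome, 357, 257 and 269 CPM with the obese secretome and 216 to 229.6 CPM in control medium, with every lean library above every obese one.

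Enzymes that clear aldehydes, ketones and epoxides gave 25 rises and 1 fall among 32 tested genes (median 0.45). Aldh3a1 (ENSMUSG00000019102), which oxidises lipid aldehydes, was at 58.0, 54.2 and 65.2 CPM with the lean secretome, 12.5, 3.27 and 2.54 CPM with the obese secretome and 1.99 to 2.89 CPM in control medium. Obese replicates 2 and 3 were near the controls, obese replicate 1 was above them, and the lean libraries were higher still, a log2 change of 3.30 (SE 0.443, adjusted p = 0.00147) that was 4.35 without obese replicate 1. Ephx1, the microsomal epoxide hydrolase, was at 296, 284 and 332 CPM with the lean secretome, 132, 98.4 and 97.7 CPM with the obese secretome and 105 to 111 CPM in control medium and rose by 1.48 (SE 0.127, adjusted p = 0.000157). Aldh1a7 was at 13.0 to 16.2 CPM with the lean secretome against 1.99 to 4.23 CPM with the obese secretome (2.35 on the log2 scale, SE 0.194, adjusted p = 4.32e-07), and the carbonyl reductase gene Cbr3 at 5.01 to 6.07 CPM with the lean secretome against 1.20 to 1.65 CPM with the obese secretome (1.99 on the log2 scale, SE 0.18, adjusted p = 7.94e-11). Reads of Aldh1a7 can match its close relative Aldh1a1.

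ABC export pumps gave 8 rises and 1 fall among 11 tested genes (median 0.66). Only some of the list carry glutathione conjugates and other organic anions out of the cell. Abcc2 (ENSMUSG00000025194) was at 60.3, 49.7 and 70.2 CPM with the lean secretome, 12.9, 4.35 and 4.41 CPM with the obese secretome and 2.42 to 3.66 CPM in control medium, with all lean libraries above all obese ones. It rose by 3.08 (SE 0.37, adjusted p = 0.000864), and by 3.78 without obese replicate 1. Abcc4, which also exports prostaglandins, was at 538, 487 and 566 CPM with the lean secretome, 316, 232 and 248 CPM with the obese secretome and 204 to 214 CPM in control medium and rose by 1.00 (SE 0.123, adjusted p = 0.000957). The related Abcc3 was at 106 to 116 CPM with the lean secretome against 63.1 to 73.4 CPM with the obese secretome and rose by 0.72 (SE 0.0471, adjusted p = 1.6e-13).

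Heme and iron genes gave 13 rises and 3 falls among 21 tested (median 0.18), with 9 to 13 rises over the alternatives. Hmox1, which opens the heme ring and frees its iron, was at 217, 202 and 263 CPM with the lean secretome, 107, 63.5 and 78.0 CPM with the obese secretome and 53.4 to 54.6 CPM in control medium. Every lean library was above every obese library and every obese library above every control library, and lean over obese was 1.46 (SE 0.195, adjusted p = 0.00145), or 1.68 without obese replicate 1. Blvrb (ENSMUSG00000040466), a flavin and biliverdin reductase, was at 31.9, 30.4 and 33.9 CPM with the lean secretome, 7.40, 4.85 and 3.65 CPM with the obese secretome and 3.69 to 4.70 CPM in control medium. Obese replicates 2 and 3 were close to the controls and obese replicate 1 was above them. The log2 change was 2.61 (SE 0.178, adjusted p = 3.8e-06), or 2.92 without obese replicate 1. Slc48a1, which moves heme across membranes, was at 193, 187 and 204 CPM with the lean secretome, 133, 84.7 and 94.7 CPM with the obese secretome and 70.8 to 73.0 CPM in control medium and rose by 0.91 (SE 0.157, adjusted p = 0.00465). Ferritin stores iron, and its heavy chain Fth1 was at 5105, 5014 and 5421 CPM with the lean secretome, 3539, 2228 and 2525 CPM with the obese secretome and 1919 to 1986 CPM in control medium, so that it too was higher in every lean library, by 0.91 (SE 0.166, adjusted p = 0.00612), or by 1.13 without obese replicate 1. The light chain Ftl1 was at 4113, 4046 and 4198 CPM with the lean secretome, 3799, 2939 and 3165 CPM with the obese secretome and 2761 to 2958 CPM in control medium, a rise of 0.32 (SE 0.0931, adjusted p = 0.0393) that was lost in 11 of 14 alternatives (adjusted p from 0.055 to 0.111 in those).

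Obese replicate 1 was the obese library closest to the lean libraries in most of these genes. It was the highest of the obese libraries in 74 of the 87 detoxification genes that rose (85.1%), against 57.6% of all genes that rose. As the median over the 19 transferases of log2(CPM + 1) minus the control mean, obese replicates 1, 2 and 3 stood at 0.45, -0.015 and -0.00049, and the lean libraries at 0.99, 0.96 and 1.03. In the mitotic list it was the lowest obese library in 3 of 40 genes that fell. What set this library apart was not tested.

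**Figure D3:**
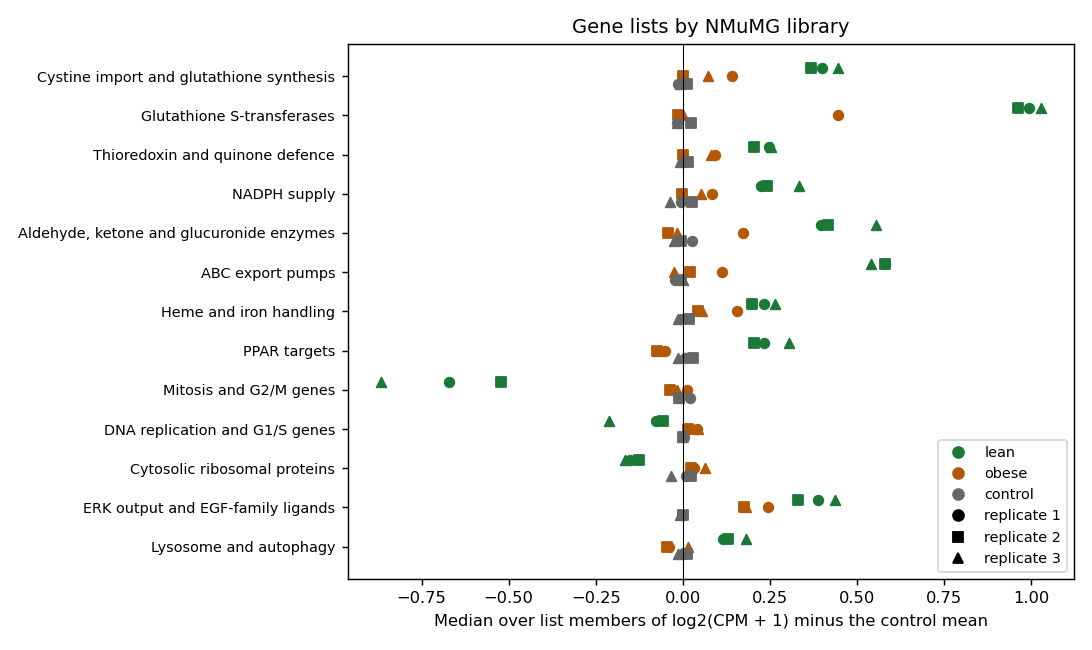
Median over the members of each of 13 lists of log2(CPM + 1) minus the mean of the 3 control libraries (horizontal axis), for each NMuMG library, coloured by medium and shaped by replicate. In the transferase list obese replicate 1 stands at 0.45 between the other obese libraries and the lean libraries, whereas the 3 obese libraries lie together near 0 in the mitosis list.

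Genes that defend membranes against lipid radicals moved less than the detoxification enzymes. Of 27 tested, 9 rose and 3 fell, and the median was 0.049. Gpx4, the peroxidase that reduces phospholipid hydroperoxides and whose loss sets off ferroptosis, was at 340.5, 336 and 348 CPM with the lean secretome, 309.5, 290.4 and 301 CPM with the obese secretome and 296 to 300.2 CPM in control medium. All 3 lean libraries were above the obese ones, by 0.19 (SE 0.0328, adjusted p = 2.66e-05) on the log2 scale. The cytosolic peroxidase gene Gpx1 was at 163, 162 and 162 CPM with the lean secretome, 128, 108 and 113 CPM with the obese secretome and 109 to 117 CPM in control medium and rose by 0.48 (SE 0.0451, adjusted p = 2.2e-09), with the 3 lean libraries nearly equal. Gch1, which starts synthesis of the radical-trapping cofactor tetrahydrobiopterin, rose by 0.52 (SE 0.12, adjusted p = 0.000832), and the selenoprotein gene Selenos by 0.43 (SE 0.0558, adjusted p = 1.9e-07).

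Enzymes that place polyunsaturated fatty acids into phospholipids, or release them, moved in both directions, with 8 rises and 6 falls among 17 tested (median 0.10), and 3 falls without lean replicate 1. The phospholipase genes Pla2g4a (146, 158 and 154 CPM with lean against 123, 98.4 and 104 CPM with obese, log2 fold change 0.50) and Pla2g6 (0.41) rose, as did Por (0.34), the electron donor of microsomal P450 enzymes. Lpcat1, which adds saturated chains to lysophospholipids, was at 35.3 to 38.6 CPM with the lean secretome against 43.9 to 49.3 CPM with the obese secretome and fell by 0.33.

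Prostaglandin genes gave 9 rises and no fall among 15 tested (median 0.54), a list that shares some members, such as Abcc4, with those above. Ptgs2, cyclooxygenase 2, was at 144, 133 and 136 CPM with the lean secretome, 72.3, 50.9 and 56.5 CPM with the obese secretome and 32.4 to 37.3 CPM in control medium. The 3 groups were fully separated in order, lean above obese above control, and the rise with lean was 1.20 (SE 0.126, adjusted p = 0.000417). Cbr1, which reduces prostaglandins and other carbonyls, was at 47.5, 44.4 and 53.1 CPM with the lean secretome, 22.9, 18.6 and 17.6 CPM with the obese secretome and 19.8 to 20.5 CPM in control medium and rose by 1.30 (SE 0.0785, adjusted p = 2.12e-11). Tbxas1, thromboxane synthase, rose by 1.36 (SE 0.288, adjusted p = 0.00029) from a level under 1 CPM.

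PPAR targets rose broadly. Of 28 tested, 20 rose and 2 fell, and the median was 0.31. Angptl4, a secreted lipase inhibitor and sentinel PPAR target, was at 40.8, 39.1 and 36.1 CPM with the lean secretome, 17.4, 13.8 and 15.1 CPM with the obese secretome and 9.67 to 10.5 CPM in control medium. The lean libraries were all above the obese ones and these above the controls, and lean over obese was 1.33 (SE 0.0724, adjusted p = 5.37e-16) on the log2 scale. Plin2, which coats lipid droplets, was at 325, 318 and 309.5 CPM with the lean secretome, 189.5, 179.9 and 203 CPM with the obese secretome and 169 to 175 CPM in control medium, a rise of 0.74 (SE 0.0371, adjusted p = 9.66e-17). Cpt1a, which admits fatty acids to mitochondria, was at 269, 267 and 274 CPM with the lean secretome, 178, 162 and 168 CPM with the obese secretome and 176 to 179 CPM in control medium, a rise of 0.67 (SE 0.0352, adjusted p = 2.39e-16), and here the obese libraries overlapped the controls. Creb3l3, a membrane-bound factor that drives fasting genes, was at 5.20, 7.24 and 6.84 CPM with the lean secretome, 1.31, 0.953 and 0.532 CPM with the obese secretome and 0.726 to 1.46 CPM in control medium and rose by 2.79 (SE 0.233, adjusted p = 5.2e-10). Pdk4 (1.25), which spares pyruvate, and the thioesterase gene Acot2 (0.93) rose as well. The counts of this list did not lean on obese replicate 1, without which 20 members rose and 2 fell. The peroxisomal oxidase gene Acox2, outside the list, was at 6.27, 6.46 and 9.56 CPM with the lean secretome, 2.37, 1.53 and 1.44 CPM with the obese secretome and 1.72 to 2.52 CPM in control medium and rose by 2.06 (SE 0.202, adjusted p = 2.98e-08).

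Lipid droplet and triglyceride genes gave 11 rises and 1 fall among 19 tested (median 0.29). Cidec, which fuses droplets, rose from 0.973, 0.290 and 0.646 CPM to 2.00, 2.08 and 1.98 CPM (1.66 on the log2 scale, SE 0.304, adjusted p = 4.39e-05). G0s2, an inhibitor of the main triglyceride lipase, was the member that fell, from 4.36, 6.50 and 6.69 CPM to 2.03, 2.34 and 1.48 CPM (-1.58 on the log2 scale, SE 0.172, adjusted p = 1.13e-08). Genes of fatty acid synthesis gave 4 rises and 7 falls among 16 tested (median -0.090). Fasn, fatty acid synthase, was at 564, 533 and 468 CPM with the lean secretome, 673, 726 and 654 CPM with the obese secretome and 672 to 700.4 CPM in control medium, with all lean libraries below the others, and fell by 0.39 (SE 0.0668, adjusted p = 0.00184). Elovl6, which lengthens saturated chains, fell by 0.42 and Scd1, which desaturates them, by 0.23, whereas the citrate carrier gene Slc25a1 rose by 0.49 and Acss2 by 0.54 on the log2 scale.

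Cholesterol genes showed no common direction. Of 25 genes of synthesis and uptake, 6 rose, 4 fell and 15 did not pass, and the median was -0.020. The share called was 40.0%, against 35.0% of all genes tested. Tm7sf2, a sterol reductase of the late pathway, was at 32.1 to 34.9 CPM with the lean secretome against 22.9 to 28.1 CPM with the obese secretome and rose by 0.37 (SE 0.0686, adjusted p = 7.13e-05). Hsd17b7, which acts in the same late steps, rose by 0.31 (SE 0.0583, adjusted p = 7.67e-05). Of 10 genes of cholesterol efflux and LXR targets, 4 rose and 2 fell. The receptor gene Nr1h3 (LXR alpha) rose by 0.47 (SE 0.081, adjusted p = 1.61e-05).

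Contractile genes divided. Of 29 tested smooth muscle and SRF targets, 11 rose and 8 fell (median 0.051). The counts depended on single libraries, with 6 rises without lean replicate 1, 7 without obese replicate 2 or obese replicate 3, and 5 falls without obese replicate 3. Genes of the differentiated smooth muscle cell were found on both sides. Tpm2, a tropomyosin, rose by 1.39 (SE 0.48, adjusted p = 0.0224) and Mylk, the kinase of myosin light chains, by 0.39 (SE 0.0537, adjusted p = 4.32e-07), both picked after their values were seen. Acta2 (ENSMUSG00000035783), smooth muscle alpha actin, was at 3.41, 3.75 and 3.81 CPM with the lean secretome, 10.5, 11.4 and 12.3 CPM with the obese secretome and 18.3, 18.2 and 17.8 CPM in control medium. The 3 groups did not overlap, the lean libraries being lowest and the controls highest, and lean over obese was -1.64 (SE 0.104, adjusted p = 2.96e-14). Tagln (ENSMUSG00000032085), an actin-binding protein of smooth muscle, was at 2.38, 2.86 and 2.96 CPM, 7.53, 9.24 and 9.69 CPM and 13.7, 10.2 and 12.0 CPM in the same order of media, again lowest with lean, at -1.70 (SE 0.137, adjusted p = 1.52e-11). Cnn1 and Myl9 stayed under 1 CPM in every library. Both were called as falls, a call that Cnn1 lost in 4 alternatives and Myl9 without obese replicate 3.

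YAP and TGF-beta targets gave 12 rises and 7 falls among 27 tested (median 0.057). The matricellular genes Ccn1 and Ccn2 are direct YAP targets. Ccn1 was at 339.8, 304 and 328 CPM with the lean secretome, 180.0, 156 and 165 CPM with the obese secretome and 145 to 156 CPM in control medium and rose by 0.96 (SE 0.0486, adjusted p = 2.78e-11). Ccn2 was at 591, 572 and 555 CPM with the lean secretome, 376, 393 and 389 CPM with the obese secretome and 333 to 352 CPM in control medium and rose by 0.57 (SE 0.0334, adjusted p = 4.43e-15). Thbs1, thrombospondin 1, was at 226, 196 and 219 CPM with the lean secretome, 109, 90.4 and 100.5 CPM with the obese secretome and 85.5 to 90.3 CPM in control medium and rose by 1.10 (SE 0.0679, adjusted p = 3.27e-07). In these 3 genes every lean library was above every obese library. The TGF-beta receptor gene Tgfbr2 rose by 0.66 (SE 0.0394, adjusted p = 5.74e-15), and Ltbp2, a latent TGF-beta binding protein, fell by 0.64 (SE 0.0829, adjusted p = 1.64e-07). Grem1, a BMP antagonist outside the list, was at 2.75 to 3.50 CPM with the lean secretome against 6.56 to 9.27 CPM with the obese secretome and fell by 1.35 (SE 0.135, adjusted p = 7.92e-10).

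Matrix genes and their proteases gave 11 rises and 10 falls among 38 tested. Adamts1 (ENSMUSG00000022893), a protease of versican and other proteoglycans, was at 7.13, 8.46 and 7.39 CPM with the lean secretome, 16.1, 29.7 and 24.5 CPM with the obese secretome and 45.3 to 46.9 CPM in control medium. The lean libraries were lowest, and among the obese libraries replicate 1 was nearest to them, with a log2 change of -1.62 (SE 0.239, adjusted p = 0.00223), or -1.82 without that replicate. Mmp9 was at 0.448 to 0.661 CPM with the lean secretome against 1.14 to 2.28 CPM with the obese secretome and fell by 1.57. Basement membrane collagens Col4a1 (0.43) and Col4a2 (0.64) rose, whereas Col6a1 (-0.58), Col6a2 (-0.53) and Col1a1 (-0.50) fell, and the protease inhibitor gene Timp3 rose by 0.66 (SE 0.0809, adjusted p = 0.000283). Col4a1, Col4a2, Col6a1, Col6a2 and Col1a1 were picked as examples after their values were seen.

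Genes of epithelial and mesenchymal state gave 7 rises and 3 falls among 21 tested. Cdh1, E-cadherin, was at 525, 512 and 528 CPM with the lean secretome, 478, 493 and 467 CPM with the obese secretome and 525 to 557 CPM in control medium and rose by 0.12 (SE 0.0323, adjusted p = 0.00291), with the lean libraries inside or below the control range. Fn1, fibronectin, was at 1028, 949.9 and 880.5 CPM with the lean secretome, 1303, 1526 and 1314 CPM with the obese secretome and 1489 to 1578 CPM in control medium, lowest with lean, a change of -0.54 (SE 0.0801, adjusted p = 0.00201). Vim, vimentin, was at 1765, 1797 and 1753 CPM with the lean secretome, 1953, 1880.0 and 1929 CPM with the obese secretome and 1731 to 1831 CPM in control medium and fell by 0.12 (SE 0.0292, adjusted p = 0.00176), while the lean libraries lay within the control range. Snai1 fell by 0.46, a call lost in 6 of 14 alternatives. Of 18 keratin and desmosome genes, 9 rose and 2 fell (median 0.20). Krt5, a basal keratin, was at 6.27, 5.05 and 6.61 CPM with the lean secretome, 0.973, 0.248 and 0.228 CPM with the obese secretome and 0.168 to 0.320 CPM in control medium. It was close to absent in the control and obese libraries other than obese replicate 1 and rose by 3.64 (SE 0.286, adjusted p = 3.67e-10), or by 4.63 without that replicate. Krt76 was at 8.16 to 9.16 CPM with the lean secretome against 1.24 to 3.43 CPM with the obese secretome (2.05 on the log2 scale, SE 0.227, adjusted p = 3.93e-06). The desmosome genes Perp (0.50) and Dsp (0.45) rose.

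**Figure D4:**
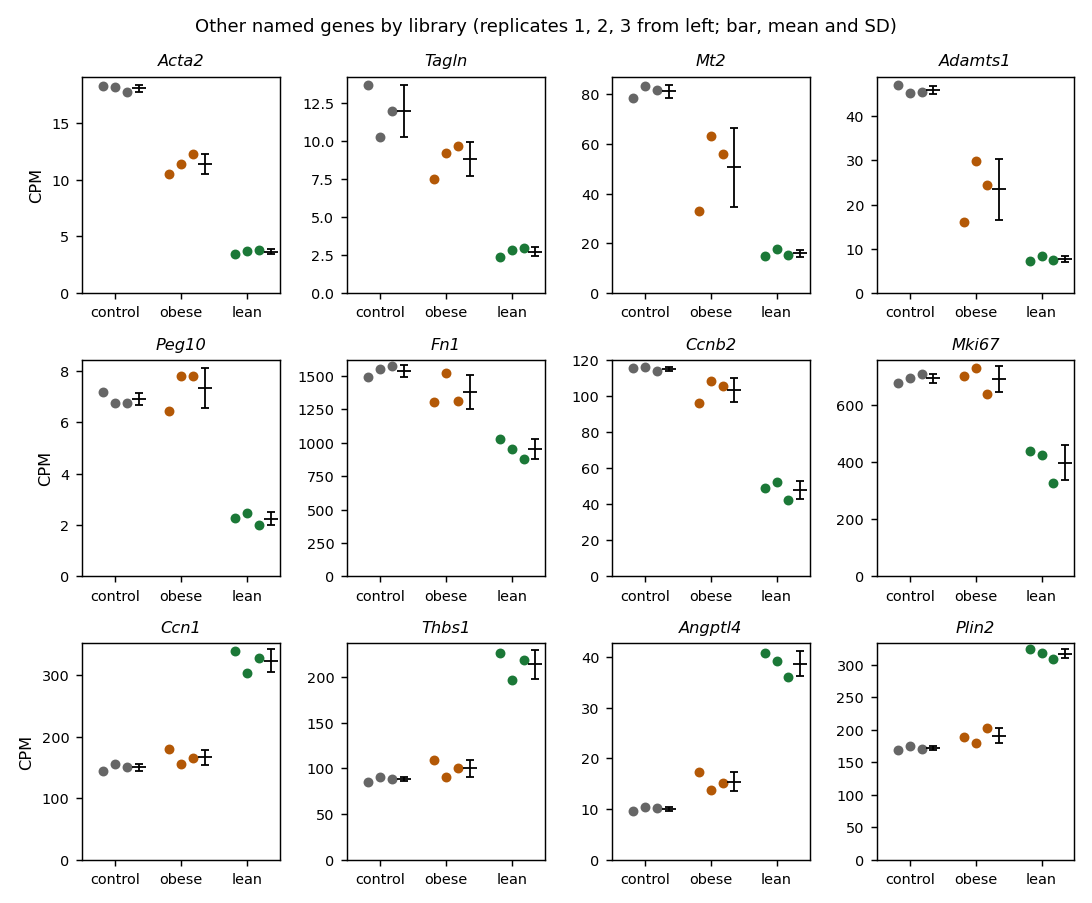
CPM of 12 further genes in each NMuMG library (points, replicates 1 to 3 from left to right in each group) with the mean and SD of the 3 libraries of each group (bar). Acta2, Tagln, Mt2, Adamts1, Peg10, Fn1, Ccnb2 and Mki67 are lowest in the 3 lean libraries, and Ccn1, Thbs1, Angptl4 and Plin2 are highest there.

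Metallothioneins bind zinc and copper and rise with free zinc and glucocorticoid. Mt2 (ENSMUSG00000031762) was at 14.9, 17.5 and 15.4 CPM with the lean secretome, 32.8, 63.0 and 55.9 CPM with the obese secretome and 78.4, 83.4 and 81.5 CPM in control medium. The groups did not overlap, the lean libraries were lowest, and obese replicate 1 was the obese library nearest to them, at -1.67 (SE 0.256, adjusted p = 0.00271) for lean against obese, or -1.90 without that library. Mt1, whose reads can match Mt2, was at 48.4, 47.6 and 44.0 CPM with the lean secretome, 71.8, 105 and 99.7 CPM with the obese secretome and 113 to 127 CPM in control medium, the same order, and fell by 0.98 (SE 0.151, adjusted p = 0.00277). Slc39a4, an importer of zinc, was at 166, 156 and 171 CPM with the lean secretome, 116, 78.4 and 84.1 CPM with the obese secretome and 69.1 to 74.0 CPM in control medium and rose by 0.83 (SE 0.141, adjusted p = 0.00439), or by 1.02 without obese replicate 1. Mt3 rose from low levels, 0.423, 0.124 and 0.0380 CPM with the obese secretome and 1.03, 0.594 and 0.700 CPM with the lean secretome, by 2.01 (SE 0.504, adjusted p = 0.00178), or by 3.22 without obese replicate 1. In the whole list 5 genes rose and 5 fell among 13 tested, the falls being 3 without lean replicate 1, lean replicate 3 or obese replicate 3.

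The mitotic genes fell together. All 40 mitotic and G2/M genes tested fell (median -0.66, from -1.11 to -0.17), the lean and obese libraries did not overlap in any of them, and all 40 fell without obese replicate 1 as well. Ccnb2 (ENSMUSG00000032218), cyclin B2, was at 49.2, 52.5 and 42.6 CPM with the lean secretome, 96.1, 109 and 106 CPM with the obese secretome and 114 to 116 CPM in control medium. The lean libraries were all below the lowest obese library, with a log2 change of -1.11 (SE 0.0599, adjusted p = 6.89e-11). Mki67, the Ki-67 proliferation marker, was at 440.0, 427 and 328 CPM with the lean secretome, 703, 732 and 641 CPM with the obese secretome and 679 to 709 CPM in control medium, a change of -0.80 (SE 0.116, adjusted p = 0.00217). Cenpf, of the outer kinetochore, was at 98.6, 104 and 74.8 CPM with the lean secretome, 176, 193 and 170.5 CPM with the obese secretome and 176 to 199 CPM in control medium, a change of -0.96 (SE 0.129, adjusted p = 0.00144). Lean replicate 3 was the lowest lean library in each of these genes. Aspm, which focuses spindle poles, fell by 1.19 (SE 0.148, adjusted p = 0.000999), Nek2 by 0.87 and Cdkn3 by 1.04. In bulk RNA, fewer cells in mitosis and less of these RNAs per cell cannot be told apart.

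Genes of DNA replication and G1/S gave 22 falls and 2 rises among 40 tested (median -0.12), with 17 to 23 falls over the alternatives. Mcm7, a subunit of the replicative helicase, was at 252, 269 and 246 CPM with the lean secretome, 333, 343 and 349 CPM with the obese secretome and 327 to 349.5 CPM in control medium and fell by 0.42 (SE 0.0359, adjusted p = 2.82e-11). Ccne1, cyclin E1, was 1 of the 2 that rose, at 47.1, 48.5 and 46.0 CPM with the lean secretome, 32.3, 33.3 and 31.3 CPM with the obese secretome and 27.2 to 29.7 CPM in control medium, a change of 0.55 (SE 0.0534, adjusted p = 5.07e-10). Genes that p53 switches on gave 21 rises and 3 falls among 30 tested (median 0.24), with 16 to 22 rises over the alternatives. Cdkn1a, the p21 inhibitor of cyclin-dependent kinases, was at 196, 188 and 195 CPM with the lean secretome, 160.4, 150.3 and 153 CPM with the obese secretome and 143 to 144 CPM in control medium and rose by 0.32 (SE 0.0352, adjusted p = 5.76e-09). Plk2 (0.62) and Btg2 (0.57) rose, and Ckap2, a spindle protein on the list, fell by 0.63. In the BCL2 family 3 of 15 genes rose and 1 fell, 26.7% called against 35.0% of all genes tested. The survival gene Bcl2l1 rose by 0.33 (SE 0.0349, adjusted p = 2.48e-09), and the death-promoting Pmaip1 rose by 0.24 and Bmf fell by 0.32.

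All 77 cytosolic ribosomal protein genes tested fell (median -0.19, from -0.28 to -0.12), with no overlap between lean and obese libraries in any, and 76 of them fell without obese replicate 1. Rps3a1 was at 547, 549.6 and 539 CPM with the lean secretome, 654, 648 and 681 CPM with the obese secretome and 607 to 639 CPM in control medium and Rpl14 at 591, 620.5 and 574 CPM with the lean secretome, 703, 703 and 728 CPM with the obese secretome and 668 to 702 CPM in control medium. In both the lean libraries were the lowest of the 9, with changes of -0.28 and -0.26. Many ribosomal protein genes have processed copies in the genome that can take some of their reads. Proteasome subunits gave 17 rises and no fall among 42 tested (median 0.082), a count that was 10 without lean replicate 3 or obese replicate 2. Psmb4 was at 207 to 221 CPM with the lean secretome against 172 to 181 CPM with the obese secretome and rose by 0.27 (SE 0.0352, adjusted p = 1.53e-07). Nuclear genes of the respiratory chain gave 2 rises and 15 falls among 55 tested (median -0.045), of which 7 falls were left without obese replicate 3. The share called in the main fit was 30.9%, against 35.0% of all genes tested.

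**Figure D5:**
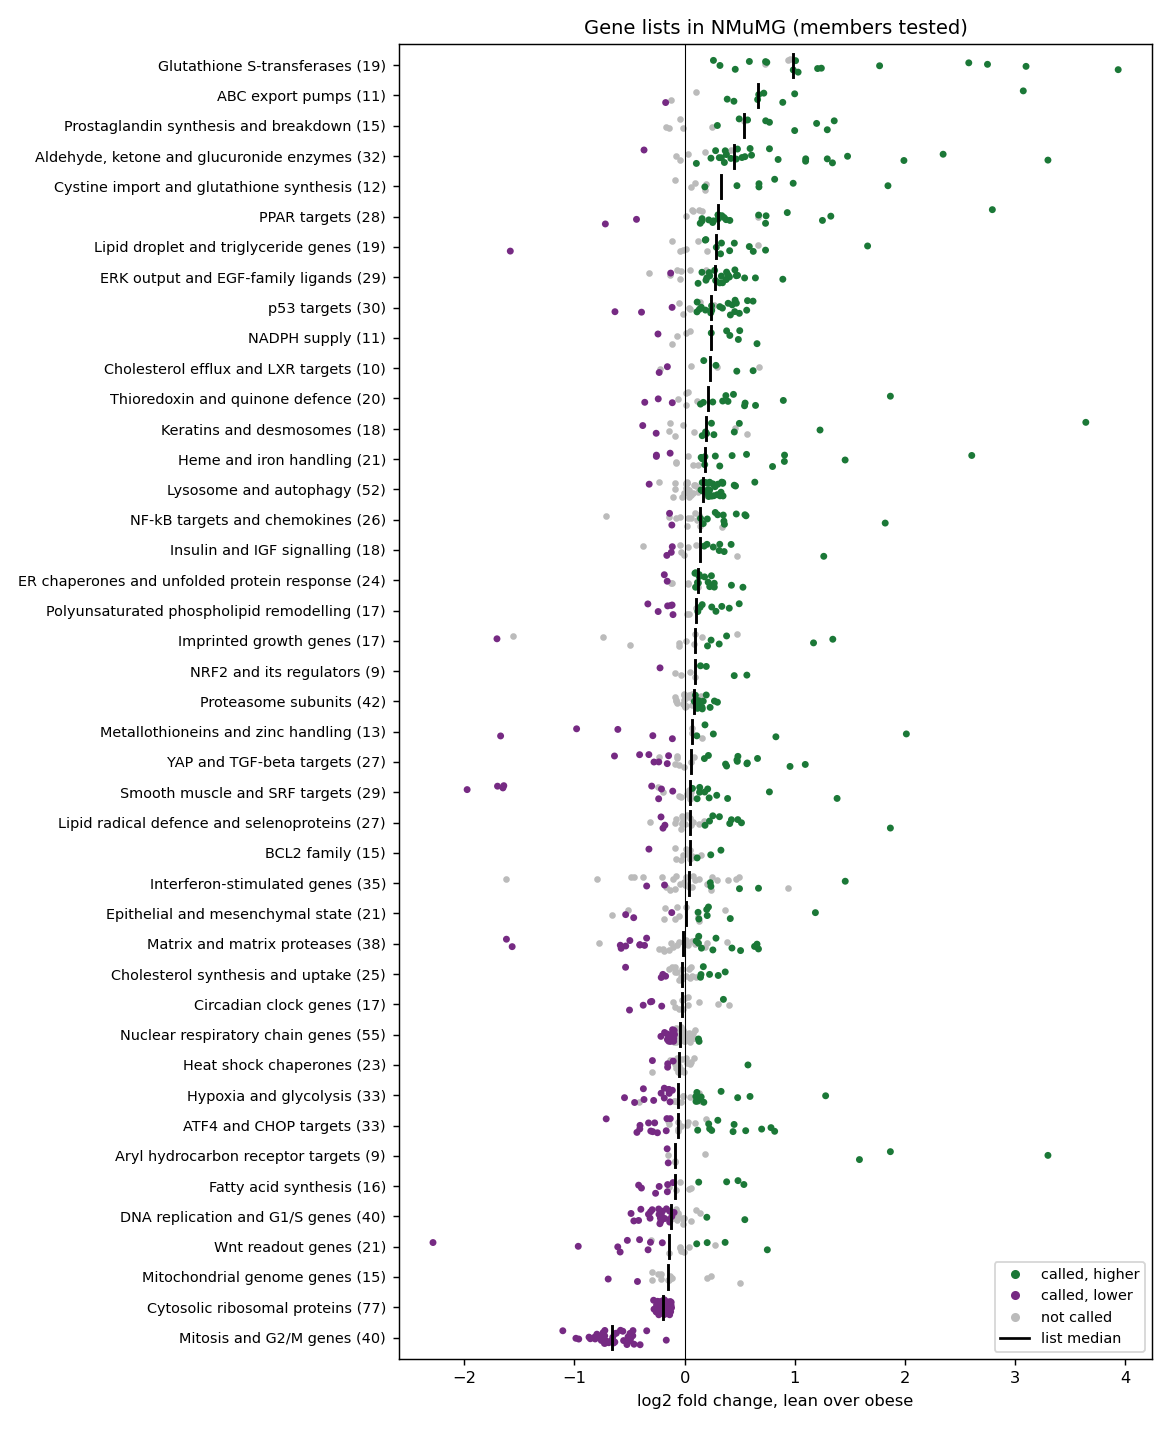
Log2 fold change of lean over obese secretome (horizontal axis) of each tested member of 43 gene lists in NMuMG, with the number tested in parentheses, coloured by call; the black bar is the median of the list. The transferase list has the highest median, 0.99, and the mitosis list the lowest, -0.66.

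Lysosome and autophagy genes gave 28 rises and 1 fall among 52 tested (median 0.17). Ctsd, the aspartic protease of lysosomes, was at 463, 450.5 and 524 CPM with the lean secretome, 327, 297 and 300.3 CPM with the obese secretome and 297 to 306 CPM in control medium, with every lean library above all others, and rose by 0.64 (SE 0.0503, adjusted p = 9.69e-08). The autophagy gene Gabarapl1 rose by 0.35 (SE 0.0537, adjusted p = 3e-06).

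Among stress pathways other than NRF2, the ATF4 and CHOP targets were mixed, ER chaperones rose more often than they fell and most heat shock chaperones did not pass. Of 33 tested ATF4 and CHOP targets, 11 rose and 12 fell (median -0.057). Atf4, the master factor of the amino acid response, was at 167, 167 and 169 CPM with the lean secretome, 194, 203 and 211 CPM with the obese secretome and 202 to 209 CPM in control medium and fell by 0.27 (SE 0.0351, adjusted p = 1.45e-07). Ddit3, which encodes CHOP, was at 10.9, 9.98 and 12.1 CPM with the lean secretome, 7.32, 8.57 and 8.17 CPM with the obese secretome and 8.39 to 9.51 CPM in control medium and rose by 0.45 (SE 0.0987, adjusted p = 0.000447). The pseudokinase gene Trib3 rose by 0.56 (SE 0.103, adjusted p = 5.68e-05), the hormone gene Gdf15 by 0.70 (SE 0.0726, adjusted p = 1.66e-09) and the glycine carrier gene Slc6a9 by 0.78 (SE 0.0641, adjusted p = 9.55e-12). Besides Atf4, the falls included Pck2 (-0.43), Shmt2 (-0.41), Psat1 (-0.41), Slc7a5 (-0.33) and Mthfd2 (-0.31) on the log2 scale. Slc7a3 also fell (-0.71), a call kept in 8 of 14 alternatives. Chac1, which breaks down glutathione, was at 5.68, 4.60 and 6.57 CPM with the lean secretome, 4.27, 5.84 and 4.60 CPM with the obese secretome and 6.35 to 6.62 CPM in control medium, with the lean and obese libraries overlapping, and did not pass (0.20 on the log2 scale, SE 0.135, adjusted p = 0.282). ER chaperones and genes of the unfolded protein response gave 16 rises and 2 falls among 24 tested (median 0.13). The rises numbered 11 to 16 over the alternatives. Hspa5, the main ER chaperone, was at 640.0, 659 and 677 CPM with the lean secretome, 526, 554 and 571 CPM with the obese secretome and 520.5 to 563 CPM in control medium and rose by 0.26 (SE 0.0347, adjusted p = 2.91e-07). Cytosolic heat shock chaperones gave 1 rise (Cryab, 0.58) and 4 falls among 23 tested, the largest fall being 0.29 in Hspa8. The share called was 21.7%, against 35.0% of all genes tested.

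ERK output and EGF-family genes gave 21 rises and 1 fall among 29 tested (median 0.27), with 17 to 21 rises over the alternatives. Areg, the EGF receptor ligand amphiregulin, was at 89.0, 85.5 and 83.7 CPM with the lean secretome, 65.0, 54.2 and 57.9 CPM with the obese secretome and 41.4 to 43.8 CPM in control medium, lean above obese above control without overlap, and rose by 0.55 (SE 0.0504, adjusted p = 2.77e-10). The ERK phosphatase gene Dusp5 was at 86.8, 80.5 and 79.2 CPM with the lean secretome, 55.9, 48.6 and 53.5 CPM with the obese secretome and 34.8 to 37.1 CPM in control medium, the same order, and rose by 0.64 (SE 0.0499, adjusted p = 3.13e-12). Dusp1, which acts on stress kinases, rose by 0.89 (SE 0.0565, adjusted p = 3.15e-14). NF-kB targets and chemokines gave 12 rises and 2 falls among 26 tested (median 0.14), with no fall left in some alternatives. Ccl20, a chemokine for dendritic cells and lymphocytes, was at 17.2, 15.4 and 16.9 CPM with the lean secretome, 5.71, 3.02 and 5.24 CPM with the obese secretome and 3.63 to 4.45 CPM in control medium and rose by 1.82 (SE 0.139, adjusted p = 2.86e-09). The feedback gene Tnfaip3 rose by 0.56 (SE 0.048, adjusted p = 2.82e-11). Interferon-stimulated genes gave 5 rises and 2 falls among 35 tested, which as a share was below that of all genes tested. The rises were 2 without lean replicate 3 and 3 without obese replicate 2, and the falls were 5 without obese replicate 1.

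Hypoxia and glycolysis genes gave 10 rises and 13 falls among 33 tested. Vegfa, the angiogenic factor, was at 119.8 to 129 CPM with the lean secretome against 82.2 to 98.0 CPM with the obese secretome and rose by 0.48 (SE 0.0473, adjusted p = 3.36e-09), and Pdk1, a pyruvate dehydrogenase kinase gene, fell by 0.55 (SE 0.0741, adjusted p = 3.5e-07). Insulin and IGF genes gave 8 rises and 3 falls among 18 tested, with Irs2 (0.42), Igfbp3 (0.36) and the insulin receptor gene Insr (0.32) among the rises. Imprinted growth genes gave 6 rises and 1 fall among 17 tested, 41.2% called against 35.0% of all genes tested. The fall was Peg10 (ENSMUSG00000092035), a gene derived from a retrotransposon, at 2.27, 2.49 and 1.98 CPM with the lean secretome, 6.43, 7.79 and 7.79 CPM with the obese secretome and 6.76 to 7.19 CPM in control medium. The lean libraries were well below both other groups, which overlapped, at -1.70 (SE 0.137, adjusted p = 6.3e-12). Phlda2, a placental growth restrainer, was at 4.08 to 5.27 CPM with the lean secretome against 2.01 to 2.20 CPM with the obese secretome and rose by 1.17 (SE 0.162, adjusted p = 4.84e-07). Mest rose by 0.38 (SE 0.118, adjusted p = 0.0109), a call lost without lean replicate 2 (adjusted p = 0.0831) or obese replicate 2 (0.107).

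Of 9 tested aryl hydrocarbon receptor targets, 3 rose and 2 fell, with 2 to 3 rises and 0 to 4 falls over the alternatives. The falls numbered 4 without lean replicate 3, 1 when obese replicate 3 was left out and 0 when obese replicate 2 was. Ahr, the receptor itself, fell by 0.16 (SE 0.0547, adjusted p = 0.0251), a call lost without lean replicate 3 (adjusted p = 0.149), obese replicate 1 (0.0584) or obese replicate 2 (0.102). The rises were Aldh3a1 and Nqo1, described above, and Cyp1a1, a classical target, which rose by 1.59 (SE 0.407, adjusted p = 0.00365), from 0.248 to 0.804 CPM with the obese secretome to 1.07 to 2.60 CPM with the lean secretome. Of 17 circadian clock genes 1 rose and 5 fell, and of 15 genes of the mitochondrial genome 0 rose and 2 fell. The shares called were 35.3% and 13.3%, against 35.0% of all genes tested.

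Wnt readout genes gave 4 rises and 9 falls among 21 tested (median -0.14). Lgr5, a Wnt target and stem cell receptor, was low and lower still with lean, at 0.585, 0.631 and 0.505 CPM, against 2.54 to 3.23 CPM with obese and 3.55 to 3.70 CPM in control medium. The 3 groups did not overlap, and lean over obese was -2.29 (SE 0.226, adjusted p = 6.56e-10). The corepressor gene Tle2 fell by 0.61 (SE 0.104, adjusted p = 3.86e-05) and the ligand gene Wnt7a rose by 0.75 (SE 0.074, adjusted p = 5.8e-10). Of the remaining genes with the largest changes, Adgra2, a Wnt7 coreceptor, was at 5.91 to 7.57 CPM with the lean secretome against 13.9 to 17.8 CPM with the obese secretome and fell by 1.32 (SE 0.101, adjusted p = 4.53e-12). Adam23 was at 11.9 to 15.1 CPM with the lean secretome against 29.1 to 30.7 CPM with the obese secretome and fell by 1.11, and the mechanosensitive channel gene Piezo2 was at 3.03 to 3.56 CPM with the lean secretome against 4.91 to 8.20 CPM with the obese secretome and fell by 1.04. Tcf23 (2.01), Vmn2r79 (1.95) and Eps8l3 (1.91) rose from levels of about 1 to 4 CPM with the obese secretome.

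To ask where the NMuMG response differed from that of the other mouse line, E0771, a mouse mammary cancer line kept in DMEM with 10% FBS but without the added glucose and insulin, the difference of the log2 effects of lean over obese was tested in 1 fit of 18 libraries. Of 16529 genes, 34.2% differed, 15.5% with a higher and 18.8% with a lower effect in NMuMG, and the median difference was -0.033. The line and any difference in base medium cannot be told apart here.

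The transferases differed toward NMuMG, with 11 of 19 higher there and none lower, although some, Gsta1, Gsta2 and Gsta3 among them, were under 1 CPM in E0771. Blvrb had an effect of 2.61 in NMuMG and 0.72 in E0771, a difference of 1.88 (SE 0.303, adjusted p = 0.000275). For Hmox1 the order was the reverse, 1.46 against 3.31, a difference of -1.86 (SE 0.412, adjusted p = 0.00314). Gclm (-0.97, SE 0.173, adjusted p = 0.000621) and Srxn1 (-0.81, SE 0.262, adjusted p = 0.0291) also had smaller rises in NMuMG. The lines differed in sign for Gpx4, at 0.19 in NMuMG and -0.32 in E0771 (difference 0.50, SE 0.0558, adjusted p = 2.08e-09). The difference did not pass for Slc7a11, at 0.96 (SE 0.434, adjusted p = 0.112), or for Ptgs2, at -0.14 (SE 0.542, adjusted p = 0.931), which was under 1 CPM in E0771.

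Stress lists differed between the lines as well. None of the 23 heat shock chaperones had a higher effect in NMuMG and 19 had a lower one, 19 having risen in E0771. Of the 33 ATF4 and CHOP targets, 20 had a higher and 3 a lower effect in NMuMG, 22 having fallen in E0771. Chac1, at -1.30 in E0771, differed by 1.49 (SE 0.205, adjusted p = 2.12e-07), Trib3 by 1.15 (SE 0.105, adjusted p = 1.93e-11) and Atf4 by 0.41 (SE 0.0514, adjusted p = 2.46e-08). Mitotic genes differed toward a lower effect in NMuMG: 32 of 40 mitotic genes had a lower effect and none a higher one, and the list medians were -0.66 in NMuMG and -0.295 in E0771. Of the 40 genes of DNA replication and G1/S, 2 had a higher and 31 a lower effect in NMuMG, 27 having risen and 8 fallen in E0771 (median 0.171). Mki67 differed by -0.43 (SE 0.143, adjusted p = 0.035), whereas Ccnb2 fell by 1.11 in NMuMG and by 1.12 in E0771, with a difference of 0.014 (SE 0.141). Ribosomal protein genes fell in both lines, 77 of 77 in NMuMG and 76 of 77 in E0771, with medians of -0.19 and -0.26.

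Among contractile and matrix genes, Acta2 fell in NMuMG and rose by 0.77 in E0771, a difference of -2.42 (SE 0.132, adjusted p = 3.16e-17), and Adamts1 fell in NMuMG and rose by 0.97 in E0771, a difference of -2.59 (SE 0.243, adjusted p = 1.44e-06). Ccn2 rose in NMuMG and was at -0.46 in E0771 (difference 1.03, SE 0.107, adjusted p = 4.59e-10). Mt2, which fell in NMuMG, was at -0.02 in E0771, a difference of -1.65 (SE 0.255, adjusted p = 0.000192). Among lipid genes, Angptl4 had the larger rise in E0771 (2.47, difference -1.14, SE 0.188, adjusted p = 0.000253) and Cpt1a the larger effect in NMuMG (difference 0.54, SE 0.0965, adjusted p = 0.000245). In the p53 list Cdkn1a rose by 1.04 in E0771, a difference of -0.72 (SE 0.0719, adjusted p = 2.14e-10).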

How the data were processed

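Whole-number read counts per gene, unnormalised, were used as deposited, in the table that the authors gave for the mouse lines. Per the labels' protocols, poly(A) RNA was made into NEBNext Ultra II Directional libraries and read on a NovaSeq as 150 bp pairs. The submitters' processing notes name cutadapt 1.16, STAR 2.7.9a, featureCounts 1.6.3 and GRCm39. The annotation release and the strand setting of the counting are not given in the sources used here, so reads of a gene and of an antisense partner may not be told apart. Symbols were matched through GENCODE M21 (GRCm38) for 52073 of 56980 gene IDs, which held 99.708% of the NMuMG counts. The human table was not used here.

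In R 4.3.3, edgeR 4.0.16 was fitted to the 9 NMuMG libraries (lean, obese and control, 3 each, with 1 shared estimate of spread), with filterByExpr, TMM factors (0.9868 to 1.007), robust quasi-likelihood F tests and Benjamini-Hochberg adjustment. Standard errors (SE) are the absolute log2 fold change over the square root of F. The difference from E0771 was an interaction in 1 fit of 18 mouse libraries. The lean and obese libraries held 23966897 to 29064014 counts, which gave a median SE of 0.0708. Reads are not independent molecules. In data simulated for the NMuMG comparison over 15014 genes, 94% of genes changed 1.5-fold and 99% of those changed 2-fold were recovered, and 4.93% of calls were false. For the interaction over 16529 genes these values were 86%, 97% and 1.61%. In each simulation 100 genes were changed at each fold, all with a mean above 2 CPM, and no library deviated as obese replicate 1 did. The genes called in the real NMuMG comparison had a median absolute log2 change of 0.265, which is under 1.5-fold. The simulated rates may therefore not hold for smaller changes, rarer genes or a deviating library.

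The members, the 43 gene lists and the tests were chosen with earlier results of these data known, so counts over a list are descriptions. Named genes are the 12 largest rises and 12 largest falls among genes that were called, did not overlap between the groups and reached a log2 CPM of 2 on average, up to 4 called members of each list with the largest changes, and a list of genes given whatever their result. A few further members of lists, all 19 transferases and some collagens among them, were named after their values were seen. A few genes that the rule names are not reported here. The levels per library were set on log2(CPM + 1). Alternatives were DESeq2 1.42.0, its size factors in edgeR, no filter on low counts, the lean and obese groups alone, the replicate number as a block, and leaving out each library.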

Additional observations from a re-analysis of the deposited data

Results flagged for a closer look

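The effect of lean over obese secretome differed between NMuMG and E0771 by the interaction test (adjusted p under 0.05) for 32 of the genes named for either their size or their role. Values here are the NMuMG minus the E0771 log2 effect. The effect was higher in NMuMG for the reductase gene Blvrb (1.88) and the peroxisomal oxidase gene Acox2 (2.72). It was also higher for Ccn2 (1.03), Gpx4 (0.50) and Cpt1a (0.54), and for Vim (0.38) and Scd1 (0.47), which fell in both lines but less in NMuMG. In the ATF4 and ER stress genes it was higher for Chac1 (1.49), Trib3 (1.15), Ddit3 (0.46), Atf4 (0.41) and Hspa5 (0.39). Of these, Atf4 fell in both lines but less in NMuMG, and Chac1 did not pass in NMuMG and fell in E0771.

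The effect was lower in NMuMG for the NRF2 target genes Hmox1 (-1.86), Gclm (-0.97) and Srxn1 (-0.81) and for the regulators Nfe2l2 (-0.21) and Bach1 (-0.34). It was lower for the metallothionein genes Mt2 (-1.65) and Mt1 (-1.01), for the contractile gene Acta2 (-2.42) and for Adamts1 (-2.59), Adgra2 (-0.805) and Ccn1 (-0.56). Among lipid genes it was lower for Angptl4 (-1.14), Plin2 (-0.30) and Fasn (-0.47), and among cell cycle genes for Cdkn1a (-0.72), Mki67 (-0.43) and Cdkn3 (-0.39). Among these 32 genes the largest negative values were in Cnn1 (-6.47), Adam23 (-4.52) and Tagln (-3.43), which were near absent in E0771, with mean levels of 0.206 CPM with lean and 0.0594 CPM with obese for Tagln. Their fitted values against such levels depend on the prior count and set no size.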

How the results depend on the processing

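The number of genes called between lean and obese in NMuMG, 5261, was 4376 to 5256 when each of the 9 libraries was left out and 4657 to 5258 under the other 5 alternatives. The number that differed from E0771, 5656, was 5142 to 5521 over 12 left-out libraries and 5396 to 5599 otherwise. Of 186 named genes called, 166 were called in all 14 alternatives and 20 lost the call in at least 1. None of the named genes changed sign in these 14 alternatives.

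Same-numbered lean and obese libraries did not deviate together (correlations of residuals 0.025, 0.0144 and 0.0144), so no pairing by number was seen. These correlations were taken over all genes tested and cannot exclude a pairing. With the replicate number as a block, 5190 genes were called, 5136 of them also called without it, and 5523 differed from E0771. Itgb6 was among the calls lost under the block (adjusted p = 0.0645).

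No 2 libraries of a group agreed within sampling noise (chi-square per degree of freedom 2.589 to 5.6), and obese replicates 1 and 2 differed most. Genes near or under 1 CPM, such as Cnn1, Myl9, Gstm3 and Mt3, rest on few reads, and their sizes are loose. Without obese replicate 1 the log2 fold change of Mt3 was 3.22, against 2.01 with it. Among further named calls, Abca1 was lost without lean replicate 1 (adjusted p = 0.148), Krt6a without lean replicate 3 (0.0824) and Bax without obese replicate 2 (0.0658).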
